A study of Mus musculus with 8 samples.

Results

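The 9 genes described here encode the AP2 adaptor and proteins that move AMPA receptors. They were followed in cortical nuclei of 4 Wt and 4 Ifnar1-/- mice by snRNA-seq. Their rows were found by gene symbol among the 31053 genes of the deposited count matrices. Ap2a1, Ap2a2, Ap2b1, Ap2m1, Ap2s1, Nsf, Grip1 and Grip2 each had 1 row, and the symbol Pick1 stood on 2 rows, so that 10 rows were read for the 9 members. The members were chosen by their difference between Ifnar1-/- and Wt in these data, where Ap2b1 stood out, so every genotype value of a member below is a description. Counts of members passing between the genotypes are printed beside those of all genes and support nothing. Differences between the sexes and between cell classes were not used to choose them and were tested.

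Each genotype comprised 2 females and 2 males, naive, aged 6 weeks and on the C57BL6J background. Ifnar1-/- mice lack the type I interferon receptor subunit in every cell of the body, so that no cell class of the knockout serves as its own control. The libraries are named F1, F2, M1 and M2 within each genotype, after the sex and number in their labels. They held 44063346 to 58423423 unique molecular identifiers (UMIs, counts of single captured RNA molecules), and 51968 of 56780 barcodes remained after filters on depth, mitochondrial share and doublets. Among all barcodes, 384 barcode sequences occurred in more than 1 library. Clusters were assigned to classes by marker genes, which gave 26454 nuclei of glutamatergic neurons (Glut), 6574 of GABAergic neurons (GABA), 7298 of oligodendrocytes (Oligo), 4386 of microglia (Micro), 1184 of striatal projection neurons and 451 of oligodendrocyte precursors. Astrocytes numbered only 159 nuclei, with 5 to 61 a mouse, and were not compared. Another 5462 nuclei stayed unnamed. Summed over all nuclei, Ifnar1 ranged from 16.2 to 19.9 CPM (UMI counts scaled to a common library total) in the Wt libraries and from 13.9 to 16.9 in the knockout, and counts over a whole gene do not check which exons the allele lacks. Xist and Ddx3y separated the 4 females from the 4 males as labelled.

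AP2 is the adaptor that links cargo in the plasma membrane to clathrin, so that receptors can be taken up in coated vesicles. It is built from 2 large subunits, alpha and beta2, with a medium mu2 and a small sigma2 subunit. At glutamatergic synapses it takes up AMPA receptors, the ion channels that carry most fast excitatory transmission. NSF, an ATPase that takes apart SNARE complexes after membrane fusion, binds the GluA2 subunit of the receptor and helps keep it at the surface. PICK1 and the GRIP scaffolds compete for the tail of the same subunit and steer it between the synapse and internal stores.

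All positions are those of GENCODE vM21 on GRCm38, the build of the files. The alpha subunit has 2 genes, Ap2a1 (ENSMUSG00000060279, chromosome 7 from 44900373 to 44929496, minus strand) and Ap2a2 (ENSMUSG00000002957, chromosome 7 from 141562173 to 141633011, plus strand). Ap2b1 (ENSMUSG00000035152), the only gene of the beta2 subunit, spans 106 kb of chromosome 11 from 83299024 to 83405035 on the plus strand. Ap2m1 (ENSMUSG00000022841), for mu2, lies on chromosome 16 from 20535478 to 20544909, on the chromosome of Ifnar1 but 70.95 Mb from it. Ap2s1 (ENSMUSG00000008036), for sigma2, covers 10.9 kb of chromosome 7 from 16738410 to 16749294. Nsf (ENSMUSG00000034187) lies on chromosome 11 from 103821782 to 103954056 on the minus strand. Grip1 (ENSMUSG00000034813) is the longest member with 633 kb on chromosome 10 from 119453830 to 120087261, and Grip2 (ENSMUSG00000030098) spans 65.7 kb of chromosome 6 from 91761509 to 91827250. Pick1 (ENSMUSG00000068206, chromosome 15 from 79229173 to 79249484) is overlapped on its own strand over 98.9% of its span by the second row with its symbol (ENSMUSG00000116121, from 79229391 to 79256674), a model that vM21 calls Gm49486. Reads that fit both models are not counted by Cell Ranger, and only 66 and 181 UMIs were left on these rows over all classes, so that the level of Pick1 is uncertain in every class. Beyond Pick1, no member was overlapped on its own strand by another gene of the files.

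The end of the promoter window of Ap2b1 is shown because Ap2b1 is the member whose level differs most between the genotypes in Glut and GABA, in mice that lack an interferon receptor. RefSeq windows run from 250 bases before to 50 bases after an annotated start, and the last 160 bases of this one are printed, at chr11:83302587-83302746 of GRCm38.p6 on the plus strand. Capitals mark a cAMP response element, which was looked for after the window had been read.

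Ap2b1: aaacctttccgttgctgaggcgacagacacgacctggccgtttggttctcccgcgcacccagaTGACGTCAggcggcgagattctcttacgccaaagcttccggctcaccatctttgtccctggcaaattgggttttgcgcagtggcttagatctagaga

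On both strands, the letters of an interferon-stimulated response element (GAAA and GAAA with NN between them) were in 0 of the 12 windows of the 9 members, against 3.44% of 32851 promoter windows of that length. The letters of a gamma-activated site (TTCNNNGAA) were in 1 window of Pick1 and in none of the other members, against 8.30% of all windows. The cAMP response element (TGACGTCA) was in the window of Ap2b1 alone among the members, against 1.79% of all windows. A match or its absence describes these letters in these windows and nothing about the factors.

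Ap2b1 was the member that stood apart between the genotypes in Glut and GABA. In Glut its level in CPM, after TMM scaling, was 249.9 and 244 in the Wt females, 190.4 and 227 in the Wt males, 157 and 161 in the Ifnar1-/- females, and 159 and 167 in the Ifnar1-/- males. All 4 Ifnar1-/- mice thus lay below all 4 Wt mice, and the Wt mice varied more among themselves. The means were 228 ± 26.9 CPM in Wt and 161 ± 4.1 in Ifnar1-/- (SD, n = 4 each). On the log2 scale Ifnar1-/- over Wt was -0.50 with a standard error of 0.09. For comparison, 0.772% of the 18516 genes tested in Glut had all Ifnar1-/- mice below all Wt mice, from which nothing is read here since this contrast chose the gene.

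GABA gave nearly the same values. The Wt mice had 282, 283, 229.55 and 241 CPM of Ap2b1 (F1, F2, M1, M2) and the Ifnar1-/- mice 188, 189, 175 and 178, again without overlap (0.809% of 14578 genes had this pattern). The means were 259 ± 27.7 and 182 ± 7.39 CPM (SD, n = 4 each) and the log2 fold change was -0.50 (standard error 0.09). In striatal projection neurons, which lie below the cortex, the means were 235 ± 29.1 CPM in Wt and 169.8 ± 7.86 in Ifnar1-/- (SD, n = 4 each), also without overlap.

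The glial classes had fewer UMIs of Ap2b1 and a wider spread. In Oligo the levels were 169.8, 199, 125 and 152 CPM in Wt and 142, 138, 98.25 and 109 in Ifnar1-/-, and the genotypes overlapped (0.836% of 11249 genes had all Ifnar1-/- mice lower). The log2 fold change was -0.40 with a standard error of 0.17. In Micro the levels were 295, 289.9, 224 and 192 CPM in Wt and 207, 202, 150.15 and 135 in Ifnar1-/-, with a log2 fold change of -0.56 (standard error 0.20) and overlapping groups (1.01% of 9560 genes had no overlap in that direction). The Micro sum of Ifnar1-/- F1 rests on 34 Ap2b1 UMIs. Oligodendrocyte precursors, with 180 Ap2b1 UMIs over all mice, had means of 248 ± 40.7 and 152 ± 33.8 CPM (SD, n = 4 each) and groups that did not overlap. The share of all genes without overlap was not counted in this class or in striatal projection neurons.

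**Figure D1:**
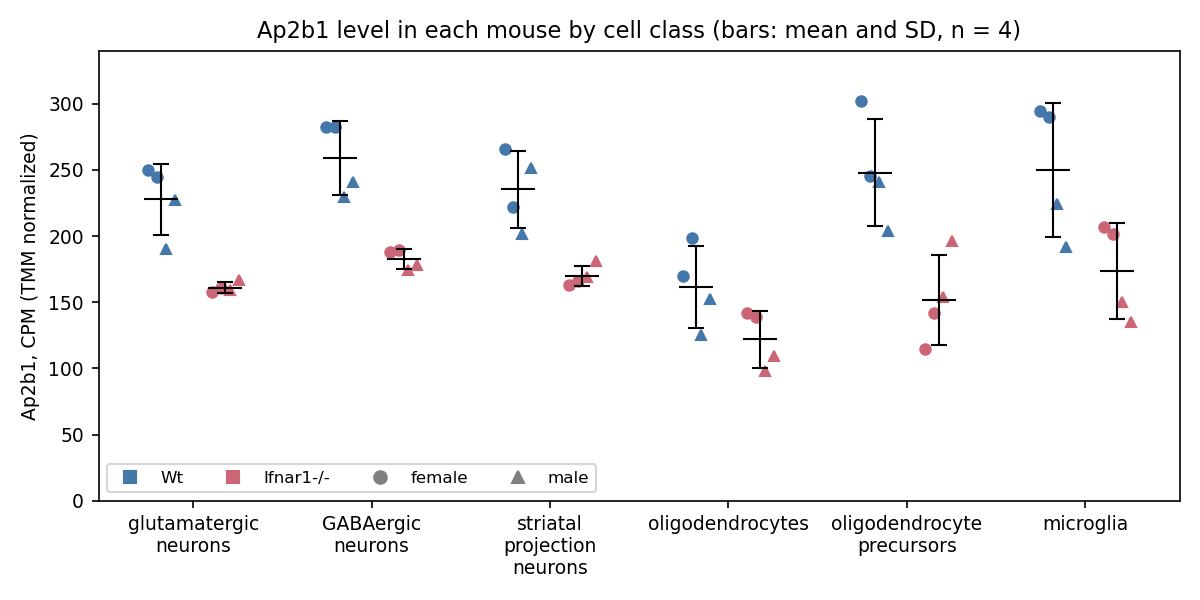
Ap2b1 level in CPM (TMM normalized, y axis) in each of the 8 mice by cell class, with circles for females, triangles for males and bars for the mean and SD of 4 mice. The Ifnar1-/- mice sit below all Wt mice in both neuron classes, the striatal projection neurons and the oligodendrocyte precursors, at 157 to 167 CPM in glutamatergic neurons, and overlap with Wt in oligodendrocytes and microglia.

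RNA released from neurons reaches the droplets of other nuclei, and its size could be read from Slc17a7, the vesicular glutamate transporter of excitatory neurons. Slc17a7 stood at 21.1% of its Glut level in Oligo and at 32.5% in Micro. Ap2b1 stood at 70.7% and 104% of its Glut level in these classes, above both shares of Slc17a7. All 5 Glut markers were detected in Oligo, with a sum of 74.4 to 172 CPM in Wt and 50.3 to 199 in Ifnar1-/-, and in Micro with 168 to 289.8 and 98.3 to 297. How much of the genotype difference in glia comes from this RNA was not tested.

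Within the neuron classes the lower level of Ap2b1 in Ifnar1-/- was seen cluster by cluster. It was lower in all 15 Glut clusters of 100 or more nuclei, by log2 fold changes of -0.61 to -0.42, and in all 6 GABA clusters, by -0.56 to -0.43. The genotypes did not overlap in 13 of the 15 and in 4 of the 6. These clusters come from the same 8 mice, and the share of all genes without overlap was not counted by cluster. Nothing is read from these counts. Over all 34 clusters of that size it was lower in 33, the exception being the astrocyte cluster, where the log2 fold change was 0.42 on 60 UMIs. Among the named subtypes, Pvalb interneurons had 289 ± 15.7 CPM in Wt and 201 ± 8.17 in Ifnar1-/- (SD, n = 4 each). Layer 6 corticothalamic neurons, with 202 ± 22.1 and 136 ± 9.04 CPM, had a lower level but a like difference.

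The 7 other members that could be tested in both neuron classes differed far less. In Glut, Ap2a1 had means of 49.2 ± 6.02 CPM in Wt and 47.1 ± 5.52 in Ifnar1-/- (SD, n = 4 each), Ap2a2 77.5 ± 4.56 and 75.0 ± 5.59, Ap2m1 15.5 ± 3.45 and 14.5 ± 3.02, and Ap2s1 14.5 ± 3.79 and 15.5 ± 4.38. In each of these the difference was within the spread of either genotype. The log2 fold changes of the members other than Ap2b1 lay between -0.21 (Grip2) and 0.09 (Ap2s1) in Glut and between -0.12 (Nsf) and 0.16 (Ap2m1) in GABA. In the other classes the members besides Ap2b1 spread more widely, from -0.33 to 0.31 in Oligo, -0.12 to 0.32 in Micro, -0.61 to 0.04 in oligodendrocyte precursors and -0.48 to 0.45 in striatal projection neurons. The last range begins with Grip2 at -0.48 (0.36), on 91 UMIs, beside -0.47 (0.13) for Ap2b1. Grip1 was nearly level in Glut, with 328 ± 34.1 CPM in Wt and 328 ± 53.3 in Ifnar1-/- (SD, n = 4 each).

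Nsf differed less in Glut and GABA. Its Glut levels were 423, 411, 406 and 416 CPM in the Wt mice and 348, 394, 408 and 391 in the Ifnar1-/- mice, so that the groups overlapped through Ifnar1-/- M1. The log2 fold change was -0.10 (standard error 0.06) in Glut and -0.12 (0.07) in GABA, where the groups did not overlap. In Oligo and Micro it had the other sign, 0.23 (0.15) and 0.21 (0.18). In oligodendrocyte precursors the means were 382 ± 36.3 CPM in Wt and 246 ± 68.9 in Ifnar1-/- (SD, n = 4 each), with overlapping groups and a log2 fold change of -0.61 (0.23), close to the -0.68 (0.24) of Ap2b1 there. Nsf was lower in Ifnar1-/- in all 15 Glut and all 6 GABA clusters, by -0.23 to -0.02. These clusters come from the same mice, and the share of all genes lower in every cluster was not counted. Nothing is read from the number of clusters.

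**Figure D2:**
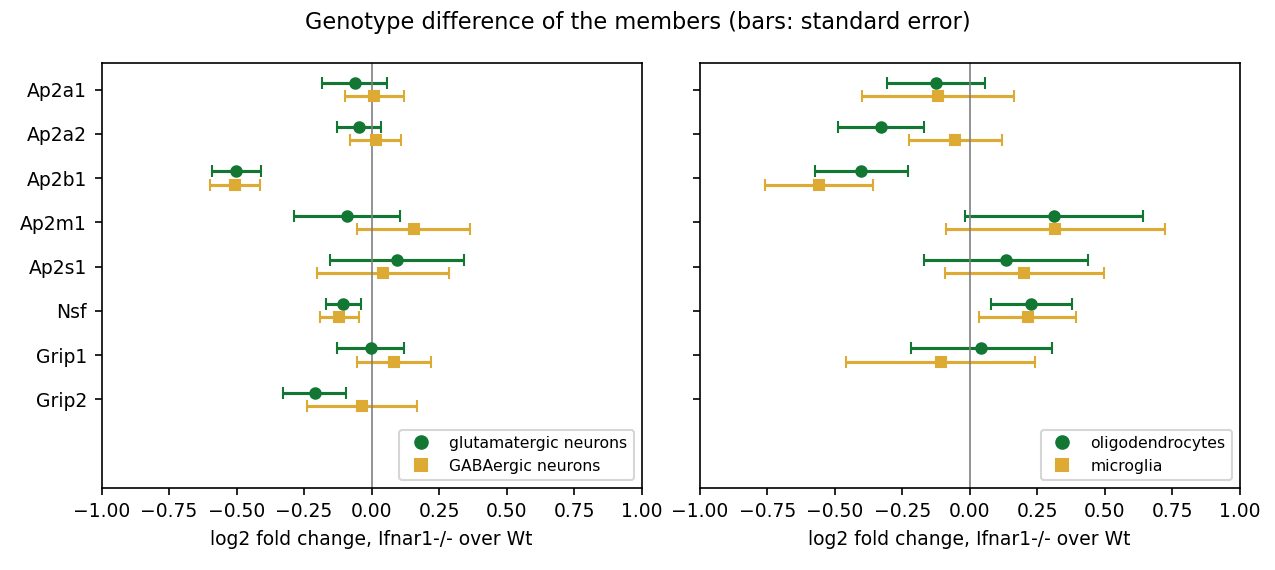
Log2 fold change of each member between Ifnar1-/- and Wt (x axis) with its standard error, in neurons (left) and in oligodendrocytes and microglia (right), each point 1 gene in 1 class. Ap2b1 lies at -0.50 in both neuron classes, and the others lie between -0.21 and 0.16 in neurons. Pick1, and Grip2 in glia, had too few UMIs.

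In Glut and GABA, Ap2b1 made up most of what the set showed. The mean log2 fold change of the 8 members that passed the filter on low counts in Glut was -0.12 with Ap2b1 and -0.06 without it, while leaving out any other single member kept it between -0.15 and -0.10. Ap2b1 gave 54.0% of the summed log2 fold change in Glut. In GABA, Oligo and Micro, where members went both ways and the sums were near 0, this figure was 143%, 289% and 552% and cannot be read as a share. In GABA the mean moved from -0.04 to 0.02 when Ap2b1 was left out, which changed its sign. The medians were -0.08 with and -0.06 without Ap2b1 in Glut, and 0.01 and 0.02 in GABA, beside medians of 0.00 and 0.01 over all genes tested. A member that passed the filter did so on its UMIs in these same libraries, so these figures describe the genes measured and not all 9.

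The same was seen in the summed level of the 5 AP2 genes. In Glut the sum was 385 ± 27.9 CPM in Wt and 313 ± 19.2 in Ifnar1-/- (SD, n = 4 each), a log2 ratio of -0.30. Without Ap2b1 it was 157 ± 15.8 and 152 ± 16.4 CPM, a log2 ratio of -0.04. In GABA the log2 ratio went from -0.28 with Ap2b1 to 0.03 without it, in Oligo from -0.23 to -0.08, and in Micro from -0.27 to 0.00. Ap2b1 made up 55.1% to 63.7% of the AP2 sum in the Glut of Wt mice and 48.9% to 54.2% in Ifnar1-/-, ranges that do not meet. UMIs of nuclei include unspliced RNA, which long genes yield more of, so this share is not that of the protein subunits.

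**Figure D3:**
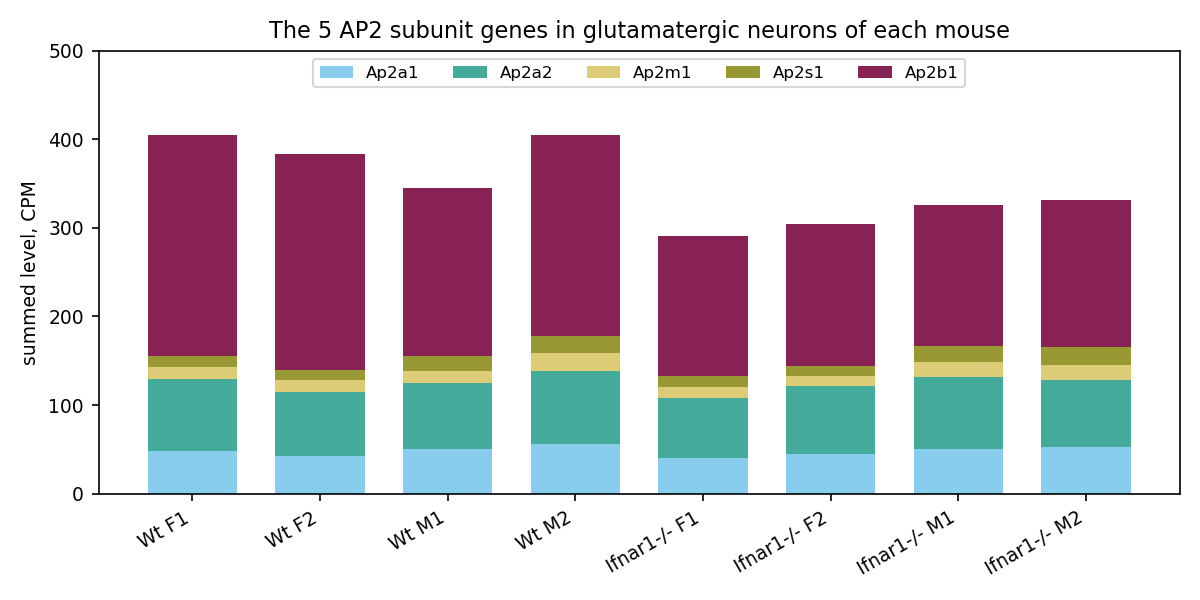
Levels of the 5 AP2 genes stacked in glutamatergic neurons of each mouse, in CPM (y axis, from 0). The part of Ap2b1, on top, is shorter in the 4 Ifnar1-/- mice, while the other 4 genes together stay near 157 CPM in Wt and 152 in Ifnar1-/-.

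By edgeR's quasi-likelihood test 0 of the 8 member rows tested in Glut, GABA and Oligo and 0 of the 7 in Micro passed a Benjamini-Hochberg adjusted p of 0.05 between the genotypes. DESeq2 passed 1 in Glut, 1 in GABA, 0 in Oligo and 0 in Micro, and Ap2b1 was that gene in both neuron classes. An unadjusted p under 0.05 in edgeR was met by 1 row in each of the 4 classes, Ap2b1. Over all genes 0.0594% passed at the adjusted p in edgeR in Glut, 0.0274% in GABA, 0.0711% in Oligo and 0.105% in Micro. In striatal projection neurons 0.0338% passed in edgeR, and 0.0501% in all nuclei together. How many of all genes passed in DESeq2 in Glut, GABA and Oligo is given at the end. The share of all genes at an unadjusted p was not counted. Nothing is read from these counts, since the contrast chose the members. With the replicate label as a block the number of genes that passed rose from 8 to 14 in Oligo and from 10 to 19 in Micro, with 0 members among them. With sex as a covariate edgeR passed 1 member row in GABA, Ap2b1, and 0 in Glut, Oligo and Micro, again a description only.

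Both sexes had the lower Ap2b1 level. In Glut the log2 ratio of Ifnar1-/- over Wt means was -0.64 in females and -0.36 in males, and in GABA it was -0.58 and -0.42. Whether the genotype difference depends on sex was not used by the choice of members and was tested with an interaction term. In edgeR 0 of 9 rows in Glut and 0 of 8 in GABA passed, and DESeq2 also passed 0 and 0. None of these rows had an unadjusted p under 0.05 with either tool. For Ap2b1 the interaction was 0.28 (standard error 0.15) in Glut and 0.17 (0.14) in GABA on the log2 scale, with an adjusted p of 0.99998 in both (edgeR). Of all genes 0.0% passed in either class, while 351 and 267 had an unadjusted p below 0.05 (edgeR), and each sex and genotype held only 2 mice.

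The neighbourhood of Ap2b1 held the largest genotype difference beside any member. Among 27 other genes tested in Glut that start within 1 Mb of the start of Ap2b1, the lincRNA Gm12576 (chromosome 11 from 83817682 to 83849493), which starts 550.5 kb away, was the extreme, at -5.28 on the log2 scale (standard error 0.22), from 2092 UMIs over the Wt mice against 50. It was the only one to pass in edgeR. The knockout level was below that of Wt for 18 of the 27, and their median log2 fold change was -0.06.

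Taf15, an RNA binding protein gene downstream with 12954 UMIs in Wt and 11694 in Ifnar1-/-, had a log2 fold change of -0.07 with a standard error of 0.07. Around the other 8 members, 13 to 93 neighbours were tested for each, and 0 passed in edgeR. The largest difference beside each was that of Gm44832 at 0.91 (Ap2a1), Olfr61 at 0.74 (Ap2a2), Cyp2ab1 at -0.46 (Ap2m1), Gm32772 at 0.52 (Ap2s1), Hexim1 at 0.44 (Nsf), Kdelr3 at 0.63 (Pick1), Gm47027 at 0.62 (Grip1) and Trh at -0.39 (Grip2). Whether the differences at Ap2b1 and at Gm12576 have a common source was not tested.

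The wider pathway showed no genotype calls. Of 120 genes in 4 lists (other adaptor complexes, clathrin coat and endocytosis, AMPA receptor subunits with auxiliary proteins, and other receptor trafficking and scaffold genes), 117 were tested in Glut, 115 in GABA, 109 in Oligo and 98 in Micro. In edgeR 0 passed in each class and DESeq2 also passed 0. At an unadjusted p under 0.05 edgeR counted 2, 1, 5 and 0. In Glut the medians of the lists were -0.04 for the other adaptor complexes, -0.03 for the clathrin list, -0.02 for the AMPA receptor subunits and -0.02 for the scaffold genes, beside 0.00 over all genes.

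Between the cell classes, Grip1 and Grip2 were far higher in GABA than in the other neuron classes. Grip1 reached 3333 ± 452 CPM in GABA and 328 ± 41.4 in Glut (SD, n = 8 each), and the lowest GABA value, 2627, was above the highest Glut value, 402. The log2 fold change of Glut over GABA was -3.19 (standard error 0.04, adjusted p = 1.4e-24 in edgeR's test with the mouse as a term). Grip2 followed with 52.9 ± 11.2 CPM in GABA and 11.5 ± 1.31 in Glut (SD, n = 8 each), a log2 fold change of -2.03 (0.07, adjusted p = 3.3e-17, edgeR). GABA also exceeded striatal projection neurons, which are GABAergic too but had 456 ± 75.6 CPM of Grip1 and 13.2 ± 5.01 of Grip2 (SD, n = 8 each), by 2.88 (0.05) for Grip1 and 2.00 (0.13) for Grip2 on the log2 scale, with adjusted p values of 1.2e-39 and 8.1e-18 (edgeR).

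Among interneuron subtypes Grip1 ranged from 2928 ± 258 CPM in Pvalb to 3826 ± 650 in Vip interneurons (SD, n = 8 each), values whose ranges over mice overlapped. In Glut subtypes it ran from 168 ± 22.8 CPM in Car3 and claustrum neurons and 197 ± 27.3 in layer 2/3 neurons to 675 ± 110 in layer 5/6 near-projecting neurons (SD, n = 8 each). Oligodendrocyte precursors had 597 ± 157 CPM of Grip1 against 27.5 ± 6.81 in Oligo (SD, n = 8 each). With all UMIs of the class as the total, pooled over mice, the levels were 479 and 26.5 CPM. Oligo were lower than the precursors by a log2 fold change of -3.84 (0.14, adjusted p = 1.7e-52, edgeR). Grip1 in Oligo and Micro stood at 8.15% and 10.97% of its Glut level, below the 21.1% and 32.5% of Slc17a7, and is therefore read as background in both, as is Grip2 with 23 and 17 UMIs.

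The AP2 subunits varied much less. Ap2b1 did not pass between Glut and GABA, with a log2 fold change of -0.03 (0.03). It was higher in Glut than in Oligo by 0.62 (0.07, adjusted p = 1.1e-07, edgeR). Its order between Glut and Micro turned with the scaling: with TMM factors set across both classes Glut was higher by 0.49 (0.09, adjusted p = 1.7e-05, edgeR), while the levels scaled within each class were 194 ± 39.9 CPM in Glut and 212 ± 57.7 in Micro (SD, n = 8 each). The same held for Ap2a2, with 0.51 (0.09) across the classes and 76.3 and 79.2 CPM within them. Of the 2 alpha subunits, Ap2a1 was higher in Oligo than in Glut, with 77.7 ± 13.8 against 48.2 ± 5.46 CPM (SD, n = 8 each), while Ap2a2 was lower, with 44.9 ± 7.96 against 76.3 ± 4.90. The log2 fold changes of Glut over Oligo were -0.52 (0.07) for Ap2a1 and 0.92 (0.08) for Ap2a2, with adjusted p values of 8.6e-07 and 1.0e-09 in edgeR. Ap2s1 was lower in Glut than in Micro by -0.87 (0.13, adjusted p = 8.6e-07) and than in Oligo by -0.82 (0.08, adjusted p = 1.8e-08, both edgeR). Ap2m1 passed in none of the 6 class comparisons. Leaving out Wt F1 or Wt M2 brought it past the threshold in Glut against Micro, at -0.49 and -0.40, and leaving out Wt F2 in Glut against Oligo, at -0.29.

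Nsf was higher in Glut than in Oligo and Micro. It stood at 399.6 ± 23.4 CPM in Glut, 358 ± 21.1 in GABA, 397 ± 23.2 in striatal projection neurons, 314 ± 88.9 in oligodendrocyte precursors, 216 ± 39.4 in Micro and 124 ± 20.8 in Oligo (SD, n = 8 each). The range of the precursors, 175 to 413 CPM, overlapped with those of the neuron classes on this scale, whose total depends on the class. That total is the UMIs of the genes that passed the filter there, 2915 genes in the precursors against 18516 in Glut. The smaller total raises the CPM of the precursors. With all UMIs as the total, pooled over mice, Nsf stood at 227 CPM in the precursors and at 401 in Glut. Glut exceeded GABA by a log2 fold change of 0.31 (0.03, adjusted p = 1.3e-09), Micro by 1.5 (0.11, adjusted p = 7.9e-13) and Oligo by 1.85 (0.08, adjusted p = 2.1e-14, all edgeR). Oligo were below their precursors by -0.65 (0.13, adjusted p = 1.0e-05, edgeR). Among Glut subtypes the lowest level, 273 ± 38.9 CPM (SD, n = 8), was that of layer 5/6 near-projecting neurons, which had the most Grip1, and it overlapped with that of layer 6 corticothalamic neurons.

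**Figure D4:**
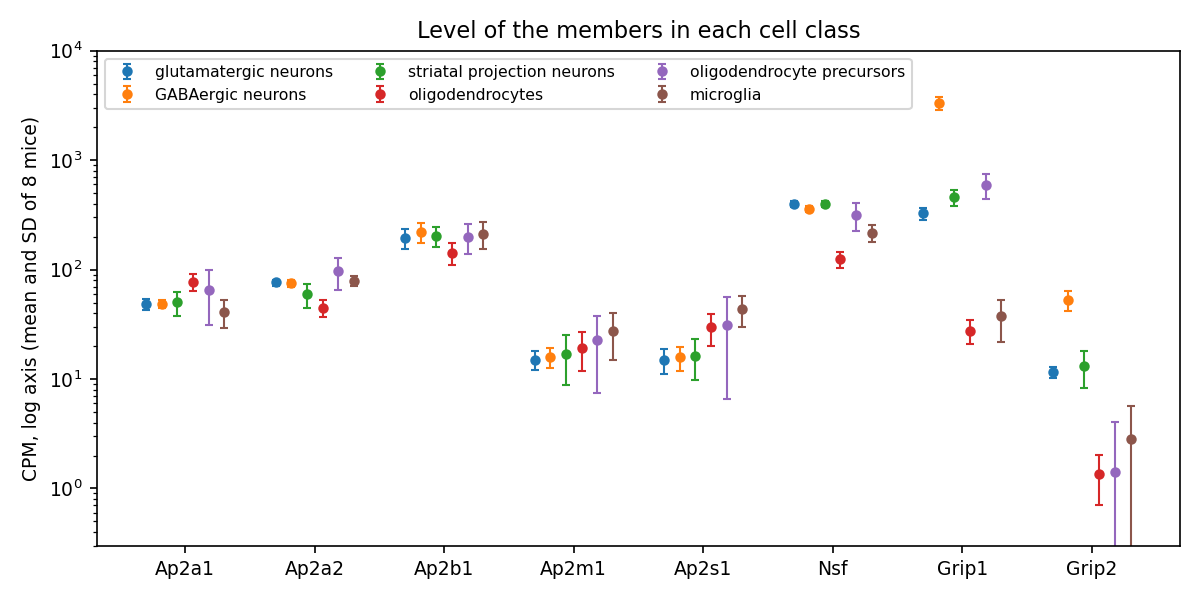
Level of 8 members in 6 cell classes in CPM (y axis, log scale), each point the mean of 8 mice with its SD. The total is the UMIs of the genes that passed the filter in each class, only 2915 genes in oligodendrocyte precursors, which raises their CPM. Lower bars that run off the axis belong to values whose SD exceeds the mean. Grip1 reaches 3333 CPM in GABAergic neurons and 328 in glutamatergic neurons, while Ap2b1 stays between 142 and 221 CPM in all 6 classes.

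Counted over the members, 5 of 8 passed between Glut and GABA, where 66.1% of all genes did, 7 of 8 between Glut and Oligo (75.0%), and 7 of 8 between Glut and Micro (71.5%). Between Oligo and Micro 4 of 7 passed (66.5%), between Oligo and their precursors 4 of 7 (46.7%), and between GABA and striatal projection neurons 4 of 8 (52.7%). No result about the members is read from these counts. The second row of Pick1 passed in Glut against Oligo (log2 fold change -4.02), with the reservation on its reads given above. The median log2 fold change of all genes was 0.25 in Glut over Micro and 0.12 in Glut over Oligo, and the members' values are to be read against it. The AMPA receptor list set the neurons apart more than the members did: 18 of 18 genes were higher in Glut than in Micro and 17 of 18 were higher than in Oligo, with medians of 3.56 and 2.88.

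Per kb of gene span in Glut, Nsf had the highest level (3.02 CPM per kb), followed by Ap2b1 (1.83), Ap2a1 (1.65), Ap2m1 (1.59), Ap2s1 (1.38), Ap2a2 (1.08), Grip1 (0.518) and Grip2 (0.175). From Ap2b1 to Ap2a2 each step in this order was smaller than the SD over mice of one of the genes compared. Pick1, at 0.00922, cannot be placed. In Micro Ap2s1 led with 3.98 CPM per kb, and in GABA Grip1 did with 5.26.

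Over the 34 clusters, the 2 GRIP genes were most like each other, with a Pearson correlation of log2(CPM + 1) of 0.79. Ap2b1 was most like Nsf (0.68) and least like Ap2a1 (-0.49) among the members. The genes of all 7639 compared that were most like Ap2b1 were Atp8a2 (0.82), Pitpna (0.82), Clip1 (0.81), Dffb (0.81) and Trpm2 (0.79). These correlations describe 34 clusters that share libraries and differ in depth and in their share of neurons.

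The sexes differed in several members, against a background in which many genes differed. In Glut 4 of 8 members passed (30% of all genes), in GABA 4 of 8 (25.5%), in Oligo 3 of 7 (21.6%) and in Micro 2 of 7 (18.9%). In oligodendrocyte precursors 0 of 4 passed in edgeR, with 0 at an unadjusted p under 0.05 (3.28% of all genes passed). Ap2s1, the small subunit, was higher in males in both neuron classes, in Oligo and in striatal projection neurons. Its Glut levels were 12.1, 10.7, 12.7 and 10.8 CPM in the females (Wt F1, Wt F2, Ifnar1-/- F1, Ifnar1-/- F2) and 16.3, 19.0, 18.4 and 19.9 in the males, with no overlap. The log2 fold change of males over females was 0.67 (standard error 0.10, adjusted p = 0.0016), with 0.61 (0.15, adjusted p = 0.012) in GABA and 0.79 (0.18, adjusted p = 0.0084) in Oligo (edgeR). The calls in Glut, GABA and Oligo remained whichever library was left out. In striatal projection neurons, where 12.7% of all genes passed, the log2 fold change was 1.02 (0.29, adjusted p = 0.027, edgeR).

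Grip1 was lower in males, with 294.8 ± 9.37 CPM against 361 ± 31.3 in females in Glut (SD, n = 4 each). Its log2 fold change was -0.29 (0.07, adjusted p = 0.014) there and -0.32 (0.07, adjusted p = 0.010) in GABA (edgeR). In striatal projection neurons it was -0.38 (0.11, adjusted p = 0.028, edgeR). The Glut call was lost without Ifnar1-/- M1, at -0.26. Ap2b1 was lower in males in glia, as were 8.81% of all genes in Oligo and 6.44% in Micro, by -0.42 (0.11, adjusted p = 0.014) in Oligo and -0.49 (0.12, adjusted p = 0.013) in Micro (edgeR), and did not pass in Glut at -0.10 (0.08) or in GABA at -0.18 (0.07). The Oligo call was lost without Wt F2 (-0.37) or Wt M1 (-0.35), and the Micro call without Wt M2 (-0.44) or Ifnar1-/- F2 (-0.49).

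Ap2m1 was higher in males in Micro by 1.07 (0.28, adjusted p = 0.015, edgeR), a call lost without Wt F1 at 0.81. In Glut (0.43, adjusted p = 0.028) and GABA (0.47, adjusted p = 0.032, both edgeR) its call was lost when any of 6 and any of 4 of the 8 libraries was left out, with log2 fold changes from 0.33 to 0.56 and from 0.40 to 0.55. Ap2a1 in Glut (0.26, adjusted p = 0.031) and Oligo (0.41, adjusted p = 0.027, both edgeR) lost its call without any of 5 and any of 4 libraries, with 0.23 to 0.31 and 0.36 to 0.48. DESeq2 passed neither Ap2m1 in GABA (adjusted p = 0.055) nor Ap2a1 in Oligo (adjusted p = 0.081). Grip2 in GABA (-0.46, adjusted p = 0.024, edgeR) lost it without any of 4, with -0.57 to -0.37. Among the libraries whose absence ended these calls, Wt F2 and Ifnar1-/- M1 occurred in every one of the 5 lists just given, those of Ap2m1, Ap2a1 and Grip2 in neurons and Oligo.

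The difference between the sexes varied with gene span, and the mitochondrial share differed with sex in neurons. In Glut, genes of up to 20 kb, such as Ap2s1 and Ap2m1, had a median log2 fold change of males over females of 0.12, and genes of more than 300 kb, such as Grip1, of -0.16. The share of mitochondrial UMIs in Glut was 0.120% to 0.306% in females and 0.337% to 0.794% in males. In Oligo and Micro the mitochondrial shares of the sexes overlapped. Genes of up to 20 kb had medians of 0.23 in Oligo and 0.26 in Micro. Genes of more than 100 and up to 300 kb, such as Ap2b1, had medians of -0.15 and -0.14. Of these, 14.7% in Oligo and 11.2% in Micro passed as lower in males (edgeR). Genes of more than 300 kb had a median of -0.20 in Oligo and of 0.16 in Micro, the other sign. The summed level of all 5 Glut markers was 50.3 to 135 CPM in the Oligo of females and 124 to 199 in those of males. The labels do not say whether the sexes were prepared together, so that sex and preparation cannot be told apart in these values. An Oligo cluster of 2804 nuclei was 5.67% female and another of 3087 nuclei was 78.0% female. The Oligo sums of the sexes thus mix these clusters in different proportions. The part of span, mitochondrial share, neuronal RNA and cluster mix in the members' differences was not tested.

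In the wider pathway, 31 of 117 genes passed between the sexes in Glut, 17 of them higher and 14 lower in males, where 30% of all genes passed. That is no larger a share than among all genes, and the genes that follow are among the 5 largest changes past the threshold in each list. Among the clathrin genes the light chain Clta was higher in males by 1.14 (0.11, adjusted p = 0.00011) and the chaperone Hspa8, which strips clathrin from vesicles, by 0.90 (0.17, adjusted p = 0.0050, both edgeR). Of the AMPA receptor list, the auxiliary protein gene Cnih2 was higher in males by 1.19 (0.18, adjusted p = 0.0014) and the subunit gene Gria2 lower by -0.43 (0.08, adjusted p = 0.0039, both edgeR). Of the other adaptor complexes, the AP1 small subunit gene Ap1s1 was higher by 0.44 (0.09, adjusted p = 0.0056, edgeR). Among the trafficking genes the endosomal GTPase genes Rab11a and Rab5a were higher by 0.71 and 0.61, and the kinesin gene Kif5b by 0.55. Sh3gl1 of the clathrin list was higher by 1.23, more than Clta. Lower in males were also Dab2 (-0.73), Shisa6 (-0.55), Gsg1l (-0.34), Epb41l1 (-0.33) and Ephb2 (-0.28).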

How the data were processed

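Single-nucleus RNA-seq of snap-frozen cortex was read from the UMI counts per gene and nucleus that the authors deposited for each of the 8 mice, made with Cell Ranger 3.1.0 on mm10 with unspliced reads counted. Nuclei with more than 200 and fewer than 6000 genes, more than 1000 UMIs and under 10% mitochondrial UMIs were kept, and doublets marked by Scrublet were removed (2373 of 54341). Nuclei were clustered with scanpy 1.11.5 in Python 3.11.15 (3000 variable genes without the members and pathway lists, 40 components, 15 neighbours, Leiden resolution 1.2), and the 38 clusters were assigned to classes by marker genes.

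UMIs were summed per mouse and class and tested in R 4.3.3 with edgeR 4.0.16 (TMM, filterByExpr, quasi-likelihood test), with Benjamini-Hochberg adjustment over all genes tested. CPM per mouse and class had as their total the UMIs of the genes that passed this filter in the class. Sex was tested with genotype in the model, and classes with the mouse as a term. The scripts were tested on simulated data. Alternatives were DESeq2 1.42.0, its size factors, no filter, doublets kept, each library left out, sex as a covariate, the replicate label as a block, and clustering with the lists left in. The smallest library held 44063346 UMIs. SDs over mice are given for precision, and intervals for counting error are not used.

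The members, lists and tests were chosen with earlier results of these data known. Each member was named, with the 5 genes most like Ap2b1 and for each member the neighbour with the largest difference. Pathway genes were named from among the 5 of each list with the largest changes past the threshold, and not all of those 5 are named. Same-numbered mice of the genotypes share their sex: their deviations from the group means correlated by 0.17 to 0.64, and by -0.24 to 0.07 once sex was removed as well. The labels do not say that the number marks a shared litter or day.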

Additional observations from a re-analysis of the deposited data

Results flagged for a closer look

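Of the 107 groups of 4 mice tested for a sample far from the others, 3 stood out, and chance marks about 1 in 20 such groups. Ap2m1 in glutamatergic neurons stood at 20.7 CPM in Wt M2, against 13.6 to 14.0 in the other Wt mice. Pick1 over all nuclei stood at 0.0447 CPM in Wt F2, against 0.197 to 0.215 in the other Wt mice, a level of few UMIs. Grip2 over all nuclei stood at 21.5 CPM in Ifnar1-/- F2, against 15.4 to 16.2 in the other Ifnar1-/- mice.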

How the results depend on the processing

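The lower Ap2b1 level in Ifnar1-/- kept its sign under each alternative run. The number of genes passing between the genotypes was 26 in Glut, 10 in GABA, 15 in Oligo and 18 in Micro with sex as a covariate, and 42, 18 and 15 in Glut, GABA and Oligo by DESeq2, against 11, 4, 8 and 10 by edgeR. With no filter 22 genes passed in Micro. With the replicate block 14 passed in Oligo and 19 in Micro. The block was not added to the class comparisons, where the mouse is already a term. Leaving out 1 library at a time gave 4 to 9 genes between the genotypes in Glut, 2 to 4 in GABA, 2 to 8 in Oligo and 3 to 14 in Micro. Between the sexes it gave 3441 to 6574, 2074 to 4664, 1482 to 2736 and 892 to 2263 genes, and 1 to 4, 2 to 5, 1 to 3 and 1 to 2 members. Grip1 in Oligo over Micro, which did not pass at -0.17, was 0.71 with doublets kept, and kept its sign and passed with the lists left in the clustering. The cause of these changes was not tested. Depth limits Pick1 in every class and Grip2 in glia.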
